A study of Mus musculus with 12 samples.

Results

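Transcripts of 10 cholinergic genes were compared in the hippocampus of 3 mouse strains. The genes are the 5 muscarinic acetylcholine receptors *Chrm1*, *Chrm2*, *Chrm3*, *Chrm4* and *Chrm5*, the 4 nicotinic receptor subunit genes *Chrna3*, *Chrna4*, *Chrna7* and *Chrnb2*, and *Ache*, which encodes acetylcholinesterase. Every non-control probe whose gene name equals one of these symbols was taken, which gave 14 probes on 23 spots of each array, for 10 of the 29608 gene names on it. Hippocampal RNA of 12 adult female mice, about 12 weeks old, was measured on 6 Agilent 2-colour arrays of 60-base probes, with 4 mice in each strain. MRL/lpr mice carry the *Fas* loss-of-function mutation on the MRL background and develop a lupus-like disease. Fn14ko mice, littermates of the MRL/lpr mice at backcross generation 8, have in addition a knockout of *Tnfrsf12a*, the gene of the TWEAK receptor Fn14. MRL/+ is the non-lupus background strain and came from another supplier than the other 2 strains. No mouse received a treatment. Each array took 2 mice of the same strain, with replicates 1 and 3 labelled with Cy3 and replicates 2 and 4 with Cy5. Both arrays of a strain were on their own slide, so slide and strain cannot be told apart.

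Acetylcholine in the hippocampus comes mainly from neurons of the medial septum and diagonal band, and the signal is read through both receptor families. Muscarinic receptors are G-protein-coupled: the odd-numbered subtypes act through Gq and phospholipase C, whereas the even-numbered ones act through Gi. Nicotinic receptors are ligand-gated cation channels built of 5 subunits, of which alpha4 with beta2 and the homomeric alpha7 receptor are the main brain forms, and alpha3 is best known from autonomic ganglia and the medial habenula. Acetylcholinesterase hydrolyses the transmitter in the synaptic cleft.

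All 14 probes are 60 bases long. The sequences of 4 of them are shown because they set what is measured for genes the results turn on: both Gi-coupled receptors, the 1 receptor that was not well above background in any mouse, and the enzyme. They are read from the array files, 5′ to 3′, in mm9 coordinates, and capitals mark the whole codons of a reading frame that holds no stop codon. *Chrm2* has 1 such frame and the other 3 probes have 2, of which 1 is marked, and the marked frame was not checked against an annotation.
*Chrm2* (chr6:36474550-36474609, plus strand): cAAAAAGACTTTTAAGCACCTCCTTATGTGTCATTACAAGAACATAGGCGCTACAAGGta
*Chrm4* (chr2:91768397-91768456, plus strand): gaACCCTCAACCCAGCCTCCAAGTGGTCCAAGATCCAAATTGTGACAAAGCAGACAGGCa
*Chrm5* (chr2:112319331-112319390, minus strand): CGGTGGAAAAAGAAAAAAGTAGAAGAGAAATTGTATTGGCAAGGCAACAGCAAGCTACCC
*Ache* (chr5:137733122-137733181, plus strand): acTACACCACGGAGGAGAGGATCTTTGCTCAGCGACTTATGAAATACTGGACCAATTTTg
The longest run of bases that any pair of the 14 probes had in common was 9, over 91 pairs, so none of the paralogous receptors shared a probe sequence. *Ache* had a second probe (chr5:137735513-137735572). *Chrm1* was read by probes at chr19:8755342-8755401 and chr19:8758011-8758070, *Chrna4* by probes at chr2:180757309-180757368 and chr2:180753095-180753154, and *Chrna7* by a probe at chr7:70244005-70244064 printed on 10 spots and another at chr7:70286594-70286653. *Chrm3* (chr13:9875880-9875939), *Chrna3* (chr9:54859230-54859289) and *Chrnb2* (chr3:89557860-89557919) had 1 probe on 1 spot each. Exon, intron or UTR was not assigned to these positions, since an annotation of this build was not used here.

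The array of MRL/lpr replicates 3 and 4 stood apart from the rest and is called the weak array below. The ratio of foreground to background had a median of 1.73 and 1.93 there, and of 4.42 to 12.6 in the remaining 10 samples. By the scanner software's call 19.6% and 25.2% of its spots were well above background, and 29.6% to 68.1% elsewhere. The Cy5 samples of MRL/+ (replicates 2 and 4) had a median signal of 208 and 211 on negative-control spots, whereas it was 33.2 to 90.6 in the other samples. A level is given here as a multiple of the channel median, either over all spots or over the 10877 spots that were valid (foreground at least 2 times background, no outlier flag) in all 12 samples. Only *Chrm1*, *Chrm3* and *Chrna4* had such a valid spot, and the other 7 genes were tested with no spot filter. *Fas* lay between 0.364 and 0.831 times the all-spot median in MRL/lpr, 0.907 and 1.54 in Fn14ko and 1.23 and 2.36 in MRL/+. It was well above background in 1 MRL/lpr, 4 Fn14ko and 2 MRL/+ mice. All Fn14ko mice lay above all MRL/lpr mice although both strains carry the *Fas* mutation, so *Fas* does not check the labels. *Tnfrsf12a* was well above background in all 4 Fn14ko mice, at 2.91 to 5.08, compared with 0.809 to 7.08 in MRL/lpr and 3.43 to 12.9 in MRL/+. Where its probe lies relative to the deleted part was not given in the sources used here, so it does not check the label. Of 10 markers of hippocampal excitatory neurons, each was well above background in some mouse. A list of 8 striatal markers summed to 16.7 to 67.1 in MRL/lpr, 174 to 670 in Fn14ko and 35.6 to 210 in MRL/+, and each of the 8 was well above background in some mouse of every strain. In bulk tissue, fewer cells of a type and less RNA per cell cannot be told apart.

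Between MRL/lpr and MRL/+ none of the 10 cholinergic genes passed the threshold of an adjusted p of 0.05 in limma, where 3.50% of all genes did. None had an unadjusted p below 0.05, where 22.1% of all genes had one. Between MRL/lpr and Fn14ko 1 of 10 passed, *Chrna7*, which was higher in MRL/lpr. The share among all genes was 10.6% in either direction and 5.04% for genes higher in MRL/lpr, so 1 of 10 lies near the background. An unadjusted p below 0.05 was found for 2 of 10 (*Chrna7* and *Chrnb2*), where 33.6% of all genes had one. Between Fn14ko and MRL/+ none passed, where 0.155% of all genes did. There 1 of 10 (*Chrm4*) had an unadjusted p below 0.05, where 9.41% of all genes had one. The methods' t-test called 0, 2 and 3 of the 10 genes in these 3 comparisons at the methods' unadjusted threshold, where it called 7.92%, 18.6% and 9.48% of all genes, and called 0 of them in each comparison after Benjamini-Hochberg adjustment, where it called 0.00%, 0.00338% and 0.0270% of all genes. The methods also required a fold change above a cutoff set by the variability of each gene, which was not applied here. The level of all 4 mice of a strain lay on one side of all 4 mice of the other for 0, 2 and 3 of the 10 genes, where this held for 9.17%, 22.7% and 10.3% of all genes. In MRL/lpr against Fn14ko these were *Chrna7* above (7.94% of all genes were) and *Chrnb2* below (14.7%), and in Fn14ko against MRL/+ *Chrm3*, *Chrm4* and *Chrna4*, all below (5.72%). Each gene was counted on the scale it was tested on. On the all-spot scale *Chrm1* and *Chrna4* of MRL/lpr also lay below Fn14ko, whereas *Chrm3* and *Chrna4* of Fn14ko overlapped MRL/+. The share of all genes on that scale alone was not computed.

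Counts of calls moved widely with the treatment of the weak array. Without it 4, 1 and 4 of the 10 genes passed in the 3 comparisons, where 34.5%, 13.7% and 25.0% of all genes did. With array weights the counts were 6, 7 and 7, where 52.8%, 48.0% and 75.2% of all genes were called. With the array as a random block none of the 10 passed in any comparison, where 0.0338%, 0.0473% and 0.00% of all genes did. Some of these calls fell on *Chrm5* or *Chrna3*, for which no mouse of one or both strains was well above background. Leaving such calls out, 3, 1 and 3 genes passed without the weak array and 5, 5 and 5 with array weights. Leaving the weak array out also lets more spots pass the filter. With each gene kept on the scale it had with all 12 samples, an alternative chosen after seeing the data, 4, 2 and 3 genes passed without the weak array (3, 2 and 2 without such calls), where 36.8%, 15.6% and 26.0% of all genes did. With the replicate number as a block over all 12 samples, none of the 10 passed in any comparison, where 2.50%, 7.44% and 0.00% of all genes did.

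For 8 of the 10 genes, all but *Chrm5* and *Chrna3*, some mouse of every strain was well above background. Their median log2 fold change was -0.15 in MRL/lpr against MRL/+, compared with -0.14 over all genes. It was 0.28 in MRL/lpr against Fn14ko, compared with 0.27, and -0.29 in Fn14ko against MRL/+, compared with -0.31. The scaling moves the baseline: the median over genes with a spot valid in all samples was -0.01, 0.03 and -0.16 in the 3 comparisons, whereas with no spot filter it was -0.25, -0.08 and -0.02. The medians with no spot filter are over all genes, including those that had a valid spot. They are therefore not the median of the genes tested with no filter, such as *Chrna7*, which was not computed. A gene's fold change is to be read with these values and this limit.

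**Figure D1:**
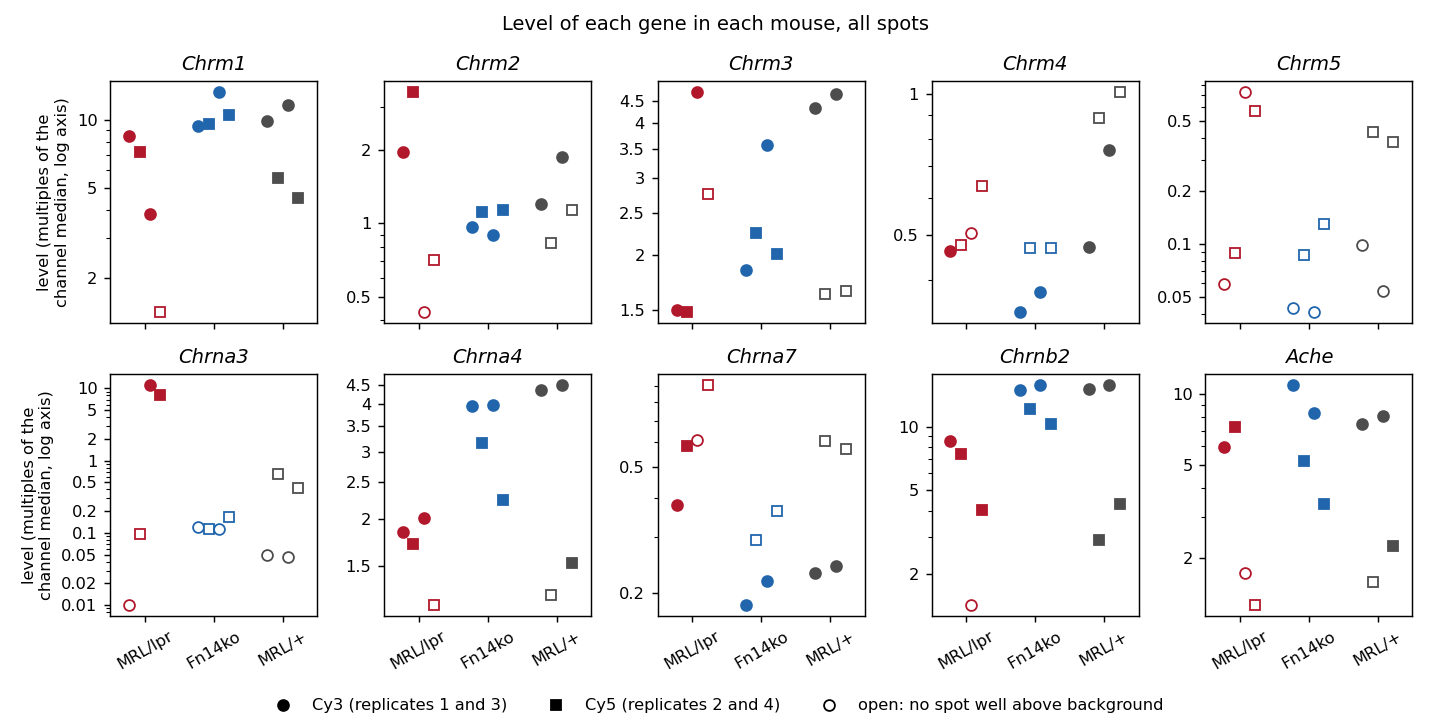
Level of each of the 10 genes in each mouse as a multiple of the channel median over all spots (log axis, a separate scale for each gene), by strain; circles are Cy3 samples (replicates 1 and 3), squares are Cy5 samples (replicates 2 and 4), and open symbols mark mice in which no spot of the gene was well above background. *Chrm5* has open symbols throughout, *Chrna3* is filled only in MRL/lpr replicates 3 and 4, and in MRL/+ the Cy5 samples lie apart from the Cy3 samples for all 10 genes.

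Of the Gq-coupled receptors, *Chrm1* encodes M1, the main muscarinic receptor of hippocampal pyramidal cells. Relative to the spots valid in all samples, *Chrm1* read 1.01, 0.950, 1.03 and 0.665 in MRL/lpr replicates 1 to 4, 0.694, 0.852, 0.956 and 1.05 in Fn14ko, and 0.775, 1.90, 0.875 and 1.21 in MRL/+. On this scale the 3 strains overlapped, and the highest value was that of MRL/+ replicate 2. Its log2 fold change was -0.31 ± 0.29 (SE) in MRL/lpr against MRL/+ (adjusted p = 0.430), 0.04 ± 0.29 in MRL/lpr against Fn14ko (adjusted p = 0.932) and -0.35 ± 0.29 in Fn14ko against MRL/+ (adjusted p = 0.662). With no spot filter the value for MRL/lpr against Fn14ko was -1.31 ± 0.52 (adjusted p = 0.0845), with the brighter of its probes at 9.83 ± 6.46 (SD, n = 4) in MRL/lpr, 20.7 ± 3.47 in Fn14ko and 14.96 ± 6.62 in MRL/+. On that all-spot scale every MRL/lpr mouse, at 1.41 to 8.44, lay below every Fn14ko mouse, at 9.38 to 13.2.

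*Chrm3* encodes M3, a second Gq-coupled receptor. Relative to the spots valid in all samples, *Chrm3* read 0.0930, 0.101, 0.696 and 0.843 in MRL/lpr replicates 1 to 4, 0.0707, 0.103, 0.133 and 0.104 in Fn14ko, and 0.180, 0.300, 0.183 and 0.238 in MRL/+. All 4 Fn14ko mice lay below all 4 MRL/+ mice (two-sided exact permutation p = 0.0286, the smallest that 4 against 4 can give), whereas the MRL/lpr mice fell on both sides of them, with the weak array on top. Here and below, this p restates that the groups did not overlap and takes the mice as independent, although 2 shared each array. The fitted log2 fold change of Fn14ko against MRL/+ was -1.13 ± 0.70 (adjusted p = 0.520). Without the weak array it was -0.88 ± 0.20 (adjusted p = 0.0149), in a fit that called 21.1% of its genes. On the all-spot scale the same mice overlapped, from 1.85 to 3.58 in Fn14ko and from 1.63 to 4.68 in MRL/+, with a log2 fold change of -0.22 ± 0.45 (adjusted p = 0.764). MRL/lpr against Fn14ko gave 1.44 ± 0.70 (adjusted p = 0.152) and turned to -0.14 without the weak array.

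*Chrm5* encodes M5, the subtype best known from midbrain dopamine neurons. No mouse had a *Chrm5* spot well above background, and its foreground was 1.18 to 2.76 times the local background. Its levels over all spots were 0.0590, 0.0886, 0.729 and 0.569 in MRL/lpr, 0.0431, 0.0865, 0.0407 and 0.130 in Fn14ko, and 0.0989, 0.431, 0.0542 and 0.378 in MRL/+. The highest readings were those of the weak array and of the MRL/+ Cy5 samples, and since both sides of each comparison were not well above background no fold is given for this receptor.

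Of the Gi-coupled receptors, *Chrm2* encodes M2, which sits on cholinergic terminals and on interneurons. Its level over all spots was 1.97 and 3.45 in MRL/lpr replicates 1 and 2, 0.432 and 0.706 in replicates 3 and 4 on the weak array, 0.965, 1.11, 0.899 and 1.13 in Fn14ko, and 1.20, 0.830, 1.88 and 1.13 in MRL/+. *Chrm2* was thus above every other mouse on one MRL/lpr array and below every other mouse on the weak one, where it was not well above background. With all 12 samples its log2 fold change was -0.01 ± 0.55 in MRL/lpr against MRL/+ (adjusted p = 0.998) and 0.23 ± 0.55 in MRL/lpr against Fn14ko (adjusted p = 0.761). Without the weak array, which leaves 2 MRL/lpr mice from 1 array, *Chrm2* passed the filter in the other 10 samples. It was then higher in MRL/lpr by 1.87 ± 0.25 against Fn14ko (adjusted p = 0.00166) and by 0.96 ± 0.25 against MRL/+ (adjusted p = 0.0287). This fit called 9.12% and 15.7% of its genes. The values with no spot filter were 1.35 ± 0.34 (adjusted p = 0.0158) and 1.11 ± 0.34 (adjusted p = 0.0209), where 14.6% and 34.7% of all genes were called.

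*Chrm4* encodes M4, a Gi-coupled receptor that is abundant in striatal projection neurons and present in hippocampus. Its level over all spots was 0.463, 0.475, 0.505 and 0.635 in MRL/lpr, 0.342, 0.469, 0.377 and 0.470 in Fn14ko, and 0.471, 0.889, 0.758 and 1.01 in MRL/+. All 4 Fn14ko mice lay below all 4 MRL/+ mice, although Fn14ko replicate 4 at 0.470 and MRL/+ replicate 1 at 0.471 nearly met (two-sided exact permutation p = 0.0286). The log2 fold change was -0.87 ± 0.32 (unadjusted p = 0.0159, adjusted p = 0.562). With flagged spots left out of every gene, an alternative chosen after seeing the data, the groups overlapped, at -0.87 ± 0.31 (adjusted p = 0.563). Without the weak array and with no spot filter the value was -0.87 ± 0.22 (adjusted p = 0.0238), in a fit that called 25.4% of all genes. With the spots valid in those 10 samples it was -1.54 ± 0.42 (adjusted p = 0.0282), and the groups overlapped. MRL/lpr against MRL/+ gave -0.55 ± 0.32 (adjusted p = 0.396) and MRL/lpr against Fn14ko 0.33 ± 0.32 (adjusted p = 0.448). Only Cy3 samples had a *Chrm4* spot well above background, 1 in MRL/lpr and 2 in each of the other strains.

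**Figure D2:**
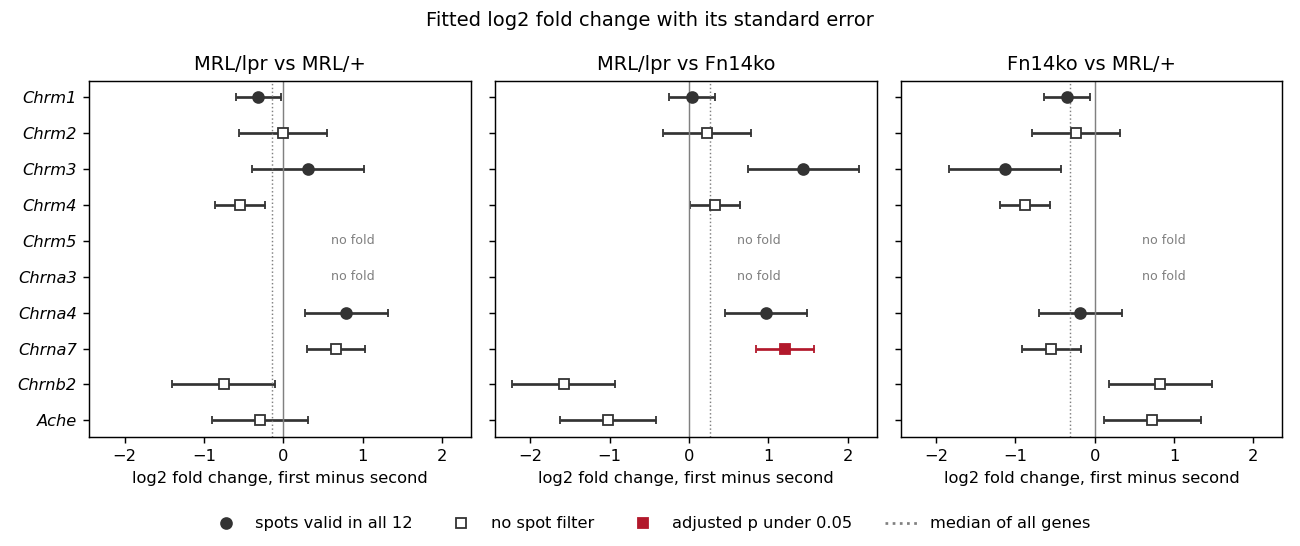
Fitted log2 fold change (first strain minus second) of each gene in each comparison, with bars of 1 standard error; filled circles are genes with a spot valid in all 12 samples, squares are genes fitted with no spot filter, red is an adjusted p under 0.05, and the dotted line is the median of all genes (-0.14, 0.27 and -0.31). *Chrna7* in MRL/lpr against Fn14ko is the only red symbol, at 1.21, and *Chrm5* and *Chrna3* have no fold drawn because in each comparison a strain had no mouse well above background.

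Of the nicotinic genes, *Chrna4* and *Chrnb2* encode the subunits of the high-affinity alpha4beta2 receptor. *Chrna4* read 0.131, 0.124, 0.493 and 0.510 in MRL/lpr relative to the spots valid in all samples, 0.127, 0.136, 0.139 and 0.114 in Fn14ko, and 0.151, 0.149, 0.144 and 0.139 in MRL/+. Apart from the weak array, on which it was higher, these levels spanned a narrow range. All 4 Fn14ko mice were below the lowest MRL/+ mouse, the nearest being indistinguishable at 3 digits (two-sided exact permutation p = 0.0286), by a log2 fold change of only -0.18 ± 0.52 (adjusted p = 0.921). This order belongs to the scaling, since on the all-spot scale the fold change was 0.39 ± 0.36 and after quantile normalization it was 0.60. MRL/lpr against Fn14ko gave 0.97 ± 0.52 (adjusted p = 0.176), and -0.97 ± 0.36 (adjusted p = 0.0702) with no spot filter. With no filter every MRL/lpr mouse, at 1.19 to 2.02, lay below every Fn14ko mouse, at 2.25 to 3.99. The 2 *Chrna4* probes differed on the all-spot scale. Their log2 difference between MRL/lpr and Fn14ko was -1.72 for the one that was not valid throughout and -0.48 for the other.

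*Chrnb2* read 8.57, 7.38, 1.43 and 4.05 times the all-spot median in MRL/lpr, 14.9, 12.05, 15.8 and 10.3 in Fn14ko, and 15.01, 2.90, 15.7 and 4.32 in MRL/+. Every MRL/lpr mouse was below every Fn14ko mouse (two-sided exact permutation p = 0.0286), on both arrays of each strain, whereas MRL/+ overlapped both. The log2 fold change of MRL/lpr against Fn14ko was -1.58 ± 0.65 (adjusted p = 0.0885), which missed the threshold. It was -0.37 after quantile normalization. Leaving out the weak array gave -0.72 ± 0.47 (adjusted p = 0.293) on the same scale, with the groups still apart, and -0.20 ± 0.18 (adjusted p = 0.586) on the spots valid in those 10 samples. Within Cy3 it was -2.13 and within Cy5 -1.03 on the all-spot scale, with 2 mice against 2, whereas on spots valid in all Cy5 samples it was 0.40. MRL/lpr against MRL/+ gave -0.75 ± 0.65 (adjusted p = 0.595) and Fn14ko against MRL/+ 0.83 ± 0.65 (adjusted p = 0.585).

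*Chrna7* encodes the alpha7 subunit, which forms homomeric, calcium-permeable channels on hippocampal interneurons and terminals. Its level over all spots was 0.379, 0.584, 0.610 and 0.909 in MRL/lpr, 0.184, 0.293, 0.219 and 0.364 in Fn14ko, and 0.232, 0.603, 0.244 and 0.571 in MRL/+. All 4 MRL/lpr mice lay above all 4 Fn14ko mice, the closest being 0.379 and 0.364 (two-sided exact permutation p = 0.0286). *Chrna7* was higher in MRL/lpr than in Fn14ko by a log2 fold change of 1.21 ± 0.37 (adjusted p = 0.0484), and this was the only difference of the 30 (10 genes in 3 comparisons) that passed. With the array as a random block the adjusted p was 0.276. Leaving out each mouse in turn gave adjusted p from 0.0110 to 0.150, under the threshold only without MRL/lpr replicate 1 or 2. With the weak array left out the value was 0.88 ± 0.28 (adjusted p = 0.0487) on the same scale, and 0.95 ± 0.62 (adjusted p = 0.409) on the spots valid in those 10 samples. MRL/lpr against MRL/+ gave 0.66 ± 0.37 (adjusted p = 0.376) and Fn14ko against MRL/+ -0.55 ± 0.37 (adjusted p = 0.583). A *Chrna7* spot was well above background in 2 MRL/lpr, 2 Fn14ko and 2 MRL/+ mice, and in neither mouse of the weak array.

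The *Chrna7* probe printed on 10 spots shows the technical spread of this measurement within a mouse. In MRL/lpr replicates 1 and 2 the same spot, which the scanner software marked as an outlier, read 2.47 and 6.01, whereas the other 9 spots reached at most 0.530 and 0.557. The CV over the 10 spots was 100% and 178% there, and 13.8% and 16.2% without that spot, compared with 7.42% to 35.6% in the other 10 mice. All 15 outlier flags among the 276 spot values of the 10 genes fell on this probe. Taking the median of the 10 spots instead, the level was 0.537 ± 0.124 (SD, n = 4) in MRL/lpr, 0.314 ± 0.0807 in Fn14ko and 0.449 ± 0.185 in MRL/+. MRL/lpr still lay above Fn14ko without overlap, by 0.78 on the log2 scale (two-sided exact permutation p = 0.0286), the nearest mice being at 0.427 and 0.402. With flagged spots left out of every gene the fitted log2 fold change of *Chrna7* was 0.91 ± 0.45 (adjusted p = 0.149), in a fit that called 8.73% of all genes. MRL/lpr and Fn14ko overlapped in that setting, and also after quantile normalization. The other *Chrna7* probe was well above background in 1 of the 12 mice and is not compared.

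**Figure D3:**
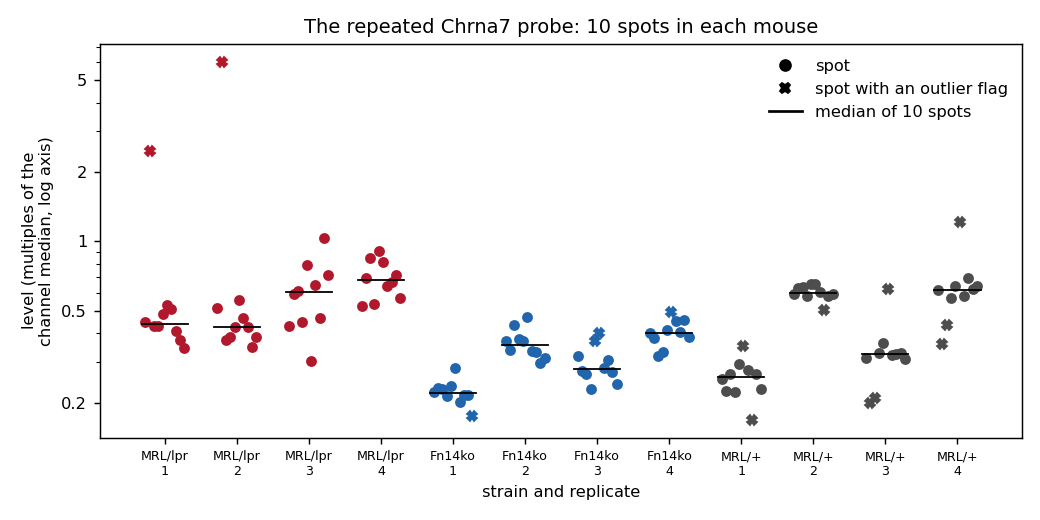
Level of each of the 10 spots of the repeated *Chrna7* probe in each mouse, as a multiple of the channel median over all spots (log axis); crosses carry an outlier flag and the line is the median of the 10 spots. The lines lie between 0.427 and 0.680 in MRL/lpr and between 0.219 and 0.402 in Fn14ko, and the crosses at 2.47 and 6.01 are the same spot on MRL/lpr replicates 1 and 2.

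*Chrna3* encodes the alpha3 subunit. Its level over all spots was 11.3 and 8.05 in MRL/lpr replicates 3 and 4, and 0.01 (the floor of 1% of the channel median) and 0.0956 in replicates 1 and 2. It was 0.122, 0.113, 0.114 and 0.168 in Fn14ko and 0.0493, 0.655, 0.0468 and 0.418 in MRL/+. The mice of the weak array were the only ones with a spot well above background, with the foreground at 10.1 and 5.58 times background, and MRL/lpr replicate 1 was the lowest of all. MRL/lpr thus had 2 of 4 mice measured, and its replicates 1 and 2 read below every Fn14ko mouse. No fold is given for MRL/lpr against Fn14ko (adjusted p = 0.387 in limma) or against MRL/+ (adjusted p = 0.668). Without the weak array no mouse of any strain had a *Chrna3* spot well above background, and neither did any mouse of Fn14ko or MRL/+ with it. No fold is given for those comparisons either. Of 6 medial habenula markers, 5 were in no mouse of the weak array well above background, among them *Chrnb4*, which encodes the subunit that pairs with alpha3. On that array only 19.6% and 25.2% of all spots were well above background, so this says little about these markers. *Nwd2*, the remaining marker, was well above background in both of its mice, at 9.50 and 6.74 times the all-spot median. *Nwd2* read 3.80 and 3.14 on the other MRL/lpr array, 8.30 to 9.76 in Fn14ko and 1.58 to 11.4 in MRL/+. The list summed to 11.02 and 14.3 on the weak array, 9.37 and 10.1 on the other MRL/lpr array, 20.3 to 50.1 in Fn14ko and 11.7 to 31.2 in MRL/+.

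*Ache* read 5.98, 7.29, 1.73 and 1.26 times the all-spot median in MRL/lpr, 10.998, 5.18, 8.35 and 3.40 in Fn14ko, and 7.45, 1.59, 8.09 and 2.25 in MRL/+. Within Fn14ko and MRL/+ the Cy3 mice were above the Cy5 mice on both arrays, and within MRL/lpr the weak array was below the other one. The strains overlapped throughout. The log2 fold change was -0.30 ± 0.61 in MRL/lpr against MRL/+ (adjusted p = 0.886), -1.02 ± 0.61 in MRL/lpr against Fn14ko (adjusted p = 0.224) and 0.73 ± 0.61 in Fn14ko against MRL/+ (adjusted p = 0.589). Its 2 probes gave -1.0 and -1.21 for MRL/lpr against Fn14ko. For the same comparison, leaving out the weak array gave 0.058 ± 0.46 (adjusted p = 0.932) on the same scale and 0.57 ± 0.27 (adjusted p = 0.237) on the spots valid in those 10 samples.

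Muscarinic and nicotinic genes were set against each other within each mouse, as the mean log2 level of the 5 muscarinic genes minus that of the 4 nicotinic genes, all on the all-spot scale. Levels of different probes are not comparable, so only the change of this difference between mice carries information. It was 0.90, 0.25, -0.77 and -1.28 in MRL/lpr replicates 1 to 4, -0.50, -0.09, -0.28 and -0.02 in Fn14ko, and 0.35, 0.17, 0.49 and 0.18 in MRL/+. MRL/lpr split by array and its mice covered the whole range, with a mean of -0.23 ± 0.99 (SD, n = 4). Fn14ko averaged -0.22 ± 0.22 and MRL/+ 0.30 ± 0.15, and these groups did not overlap. This mean includes *Chrm5*, well above background in no mouse, and *Chrna3*, well above background in no mouse of these strains. As a description, the difference between strains was -0.52 for MRL/lpr against MRL/+, -0.00085 for MRL/lpr against Fn14ko and -0.52 for Fn14ko against MRL/+.

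The muscarinic mean was 0.08 ± 0.18 in MRL/lpr, -0.11 ± 0.22 in Fn14ko and 0.33 ± 0.07 in MRL/+. The nicotinic mean was 0.31 ± 1.08, 0.12 ± 0.03 and 0.03 ± 0.14. With these genes all included, the wide MRL/lpr spread was on the nicotinic side, where *Chrna3* alone covered from 0.01 to 11.3. In MRL/lpr the muscarinic mean without *Chrm5* was 0.65 ± 0.38 and the nicotinic mean without *Chrna3* 0.70 ± 0.31. The wider spread was then not on the nicotinic side. With only *Chrna3* left out, the muscarinic minus nicotinic difference was -0.62 ± 0.45 in MRL/lpr, -1.25 ± 0.27 in Fn14ko and -0.60 ± 0.48 in MRL/+. Fn14ko then ran from -1.55 to -0.92 and MRL/+ from -1.06 to -0.077, so these strains overlapped. With *Chrm5* left out as well, the difference was -0.05 ± 0.32 in MRL/lpr, -0.30 ± 0.15 in Fn14ko and 0.12 ± 0.20 in MRL/+. Fn14ko ran from -0.52 to -0.15 and MRL/+ from -0.16 to 0.30, which overlap. Over the receptors that were measured these strains were thus not fully apart. The overlap was narrow, with the highest Fn14ko mouse at -0.154 and the lowest MRL/+ mouse at -0.162. No test was run on this difference.

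**Figure D4:**
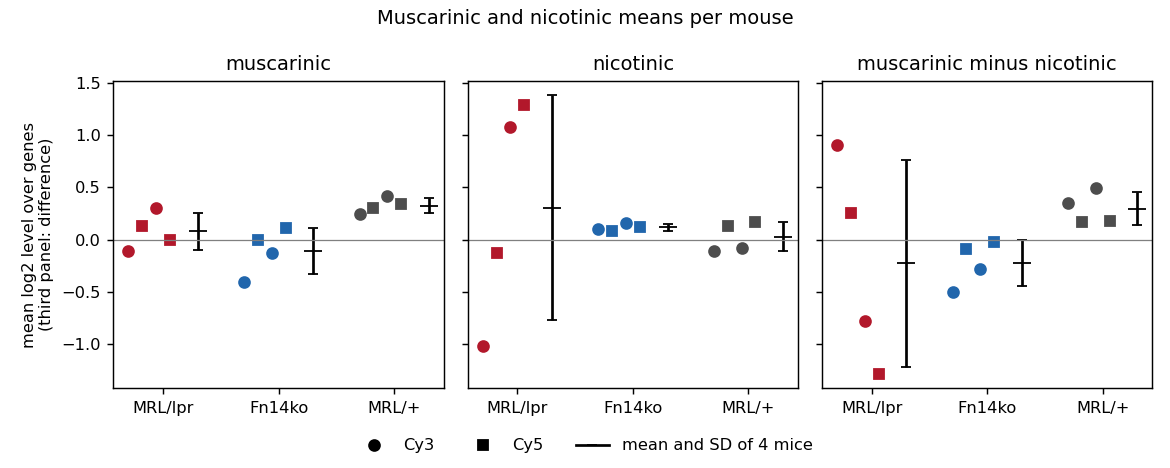
Mean log2 level of the 5 muscarinic genes, of the 4 nicotinic genes, and their difference in each mouse, with the mean and SD of the 4 mice of a strain in black; circles are Cy3 and squares Cy5 samples. MRL/lpr mice span from -1.01 to 1.28 in the nicotinic mean, compared with 0.09 to 0.16 in Fn14ko.

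The difference between the 2 mice of an array, 1 in each dye, was of larger median size in MRL/+ than in the other strains. In MRL/+ the Cy5 mouse read lower on both arrays for 6 genes (*Chrm1*, *Chrm2*, *Chrm3*, *Chrna4*, *Chrnb2* and *Ache*) and higher on both for the other 4, for which no Cy5 mouse of MRL/+ was well above background. The median size of the log2 difference was 1.60 and 1.52 on the MRL/+ arrays, 0.32 and 0.68 on those of Fn14ko, and 0.26 and 0.64 on those of MRL/lpr. *Chrnb2* differed by -2.37 and -1.86 in MRL/+ and by -0.31 and -0.61 in Fn14ko, and *Ache* by -2.23 and -1.85 in MRL/+ and by -1.09 and -1.30 in Fn14ko. The median over all genes was -0.04 and -0.06 on the MRL/+ arrays. The fit holds 1 dye term for all strains. The MRL/+ Cy5 samples are those with the high negative-control signal, and the part of that signal in these values was not tested. Within Cy3 alone, with 2 mice against 2, *Chrnb2* read -0.00071 and *Chrna4* -0.16 in Fn14ko against MRL/+ on the all-spot scale, compared with 1.66 and 0.94 within Cy5.

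**Figure D5:**
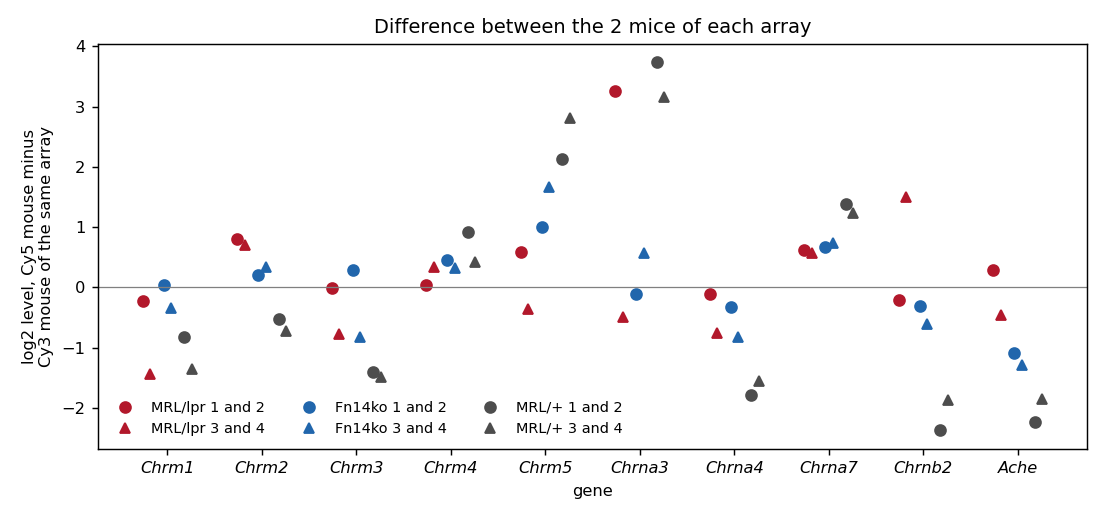
Log2 level of the Cy5 mouse minus that of the Cy3 mouse on the same array, for each gene and each of the 6 arrays (all-spot scale); circles are the arrays of replicates 1 and 2 and triangles those of replicates 3 and 4. On the MRL/+ arrays *Chrnb2* lies at -2.37 and -1.86 and *Ache* at -2.23 and -1.85, and no gene changes sign between them.

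Other genes of cholinergic transmission were described from lists. Of all genes, 1.49% were called higher and 2.01% lower in MRL/lpr than in MRL/+, 5.04% higher and 5.53% lower in MRL/lpr than in Fn14ko, and 0.0135% higher and 0.142% lower in Fn14ko than in MRL/+. Of 12 further nicotinic subunits, 2 were higher in MRL/lpr than in Fn14ko and none passed in the other comparisons. These were *Chrnb3* (adjusted p = 0.0104) and *Chrna2* (log2 fold change 1.82 ± 0.44, adjusted p = 0.0450), a subunit of hippocampal oriens interneurons. *Chrnb3* was well above background in only 2 mice, both MRL/lpr, at 1.45 and 2.43 times the all-spot median. The MRL/lpr mice of the weak array read 0.572 and 0.557, and the Fn14ko mice 0.0674 to 0.250, so no fold is given for *Chrnb3*. Relative to the spots valid in all samples *Chrna2* read 0.304 to 1.64 in MRL/lpr, 0.198 to 0.257 in Fn14ko and 0.465 to 1.14 in MRL/+. Of 11 genes of acetylcholine synthesis, transport and breakdown, 1 was lower in MRL/lpr than in MRL/+ and 1 lower than in Fn14ko. *Acly*, which makes cytosolic acetyl-CoA, was lower than in MRL/+ by -1.65 ± 0.43 (adjusted p = 0.0381), and *Chkb*, a choline kinase, was lower than in Fn14ko by -2.63 ± 0.76 (adjusted p = 0.0436). On the all-spot scale *Chat*, which encodes the enzyme that makes acetylcholine, read 1.88 ± 0.81 (SD, n = 4) in MRL/lpr, 2.66 ± 0.53 in Fn14ko and 1.88 ± 0.38 in MRL/+. None of 8 markers of basal forebrain cholinergic neurons passed in any comparison.

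Of 12 chaperones and modulators of nicotinic receptors, 1 was higher in MRL/lpr than in MRL/+, and 1 was higher and 3 were lower in MRL/lpr than in Fn14ko. *Lypd1*, a membrane-anchored protein that damps nicotinic currents, rose by 1.91 ± 0.29 against MRL/+ (adjusted p = 0.00511) and by 1.18 ± 0.29 against Fn14ko (adjusted p = 0.0452). *Ric3*, a chaperone of alpha7, fell by 1.46 ± 0.44 against Fn14ko (adjusted p = 0.0472). *Lypd6b* (-2.09 ± 0.44, adjusted p = 0.0141) and *Nrg1* (-1.67 ± 0.47, adjusted p = 0.0405) were lower in the same comparison. Of 24 genes of muscarinic signalling, 4 were lower in MRL/lpr than in MRL/+ and 2 lower than in Fn14ko, and none was higher. *Rgs4*, which shortens Gq and Gi signals, fell by 2.46 ± 0.31 against MRL/+ (adjusted p = 0.00251) and by 1.94 ± 0.31 against Fn14ko (adjusted p = 0.0101). *Adcy5*, an adenylyl cyclase abundant in striatum, fell by 1.19 ± 0.30 and 1.55 ± 0.30 (adjusted p = 0.0366 and 0.0228), and *Rgs7* and *Grk2* were lower than in MRL/+ by -1.28 ± 0.22 and -1.80 ± 0.46 (adjusted p = 0.00902 and 0.0353). With the array as a random block none of the genes named from these lists kept an adjusted p under 0.05, *Rgs4* coming nearest at 0.0732 against MRL/+.

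Markers of other cells moved in the same comparisons. Between MRL/lpr and Fn14ko 5 of 8 striatal markers were lower in MRL/lpr, and 4 of 10 markers of hippocampal excitatory neurons were higher, among them *Dsp* of the dentate gyrus (4.71 ± 0.56, adjusted p = 0.00173). The excitatory list as a sum over all spots was not higher in MRL/lpr than in Fn14ko. It read 243 and 262 on one MRL/lpr array, 32.1 and 46.3 on the weak array, and 201 to 264 in Fn14ko. Against MRL/+ 3 of 8 markers of GABAergic interneurons were lower in MRL/lpr, among them *Npy* (-2.53 ± 0.44, adjusted p = 0.00903). Summed over all spots, the interneuron list read 327 and 357 on one MRL/lpr array, 38.9 and 86.0 on the weak array, 501 to 679 in Fn14ko and 212 to 806 in MRL/+. Of 7 choroid plexus markers 2 were higher in MRL/lpr than in Fn14ko and 1 higher than in MRL/+, and their sum ran from 53.0 to 607 in MRL/lpr, 9.99 to 142 in Fn14ko and 12.08 to 27.8 in MRL/+. The part of these cell types in the cholinergic values was not tested.

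For the 3 cholinergic genes with a spot valid in all samples, the genes with the most similar profile over the 12 mice are given as a description. These mice share arrays, dyes and 1 scaling. *Chrm1* was most like *Smim31* (r = 0.916), *Slc10a1* (r = 0.910) and *Gm5523* (r = 0.882), with r of 0.936, 0.902 and 0.883 over the 10 mice outside the weak array. *Chrm3* was most like *Sirt6*, *Gfy* and *Gtpbp1* (r = 0.985, 0.984 and 0.982), with 0.946, 0.942 and 0.932 over the 10 mice. *Chrna4* was most like *Mtmr7*, *Specc1l* and *Tctn1* (r = 0.996, 0.992 and 0.992), and these values fell to 0.861, 0.755 and 0.722 without the weak array.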

How the data were processed

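The authors scanned 6 Agilent 2-colour arrays of hippocampal RNA from 12 mice and deposited the output of Agilent Feature Extraction, with 44397 spots each, of which 43020 are gene probes. The deposited intensity values are, per the file headers, mean foreground and median local background of each dye, and neither is normalized. Per the labels each dye holds 1 mouse, so each channel was treated as a sample. Background was subtracted, spots were kept where foreground was at least 2 times background without an outlier flag in all 12 samples, and values were divided by the channel median. Genes with no such spot were scaled to the median of all spots, with values under 1% of it set to that floor. A gene's value is the mean of its probes, each the mean of its spots, and log2 values were fitted with limma 3.58.1 in R 4.3.3 (dye as covariate, trended variance, Benjamini-Hochberg adjustment over all genes of a fit, threshold 0.05), after the code was tested on simulated data. Exact permutation tests used scipy 1.17.1 and took the mice as independent. In the fit with the array as a random block, the correlation within an array was 0.71 for genes valid in all samples. It was 0.66 with no spot filter. The methods' t-test was run on the same values, without the methods' condition on fold change. Named were the 10 genes, up to 3 genes of each list with the largest log2 fold change among those past the threshold in a comparison, the 3 genes most like a member by Pearson's r, and *Tnfrsf12a* and *Fas*. Cell type markers were given as counts, with the largest log2 fold change named for 2 of these lists, and 1 marker gene is not reported here. *Chat*, *Chrnb4* and *Nwd2* were added after their values were seen. Members and lists were chosen with earlier results of these data known. The labels do not say that same-numbered mice were paired. Over the genes valid in all samples, deviations of same-numbered mice from their strain means correlated at 0.20 to 0.50 in all 4 pairs of Fn14ko and MRL/+. A number also fixes the dye, so these correlations cannot tell pairing from dye. The main fit holds no pairing, and the replicate number was fitted as a block over all 12 samples only as an alternative. The p-values measure the spread between these mice, 2 to an array. The number of arrays limits precision. A label line names cortex where the tissue is given as hippocampus. Alternatives included normexp, quantile normalization, array weights, array and replicate blocks and each sample left out.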

Additional observations from a re-analysis of the deposited data

How the results depend on the processing

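In 24 of the 30 member comparisons both strains had a mouse well above background. Over 20 alternatives to these, 70 of 470 values turned their sign and 36 passed the threshold, and an alternative that left a strain with no such mouse gave no value. The number of the 10 genes called in MRL/lpr against MRL/+ was 0, and became 6 with array weights, 4 without the weak array, 4 without it with the scale of each gene kept and 1 with a background from the negative controls. In MRL/lpr against Fn14ko it was 1, and became 7 with array weights, 2 with spots valid in every sample of 1 group, 2 without the weak array with scales kept and 2 by the methods' t-test without adjustment. It became 0 with normexp or negative-control background, quantile normalization, log mean of probes, the array as a random block, the replicate number as a block, no dye covariate, no variance trend, the methods' t-test with adjustment, flagged spots left out, and within Cy3 or Cy5. In Fn14ko against MRL/+ it was 0, and became 7 with array weights, 4 without the weak array, 3 without it with scales kept and 3 by the methods' t-test without adjustment. Leaving out each sample in turn gave 0 to 0, 0 to 6 and 0 to 0, with 6 without MRL/lpr replicate 2, 2 without MRL/lpr replicate 1 and 0 for the other 10. The share of all genes called was not computed for these fits. Nor was it for the negative-control background or the spots valid in every sample of 1 group. Those counts therefore cannot be read as a result about the 10 genes. *Chrna7* in MRL/lpr against Fn14ko kept its sign throughout, from 0.69 (normexp, adjusted p = 0.0723 in limma) to 3.30. With the replicate number as a block its adjusted p was 0.0611, and the block changed no other call. Deviations of same-numbered mice correlated from -0.40 to 0.44 in the comparisons with MRL/lpr. The muscarinic minus nicotinic difference of MRL/lpr against MRL/+ was 0.11 with processed signal, -1.20 with quantile normalization, 0.28 without the weak array and 0.18 with the negative-control background, against -0.52. In MRL/lpr against Fn14ko it was -0.74 with quantile normalization and 0.80 without the weak array, and in Fn14ko against MRL/+ 0.52 with processed signal. Leaving out each sample gave -0.90 to -0.17, -0.38 to 0.35 and -0.59 to -0.43. *Chrm2* in MRL/lpr against MRL/+ turned to 0.26 with normexp, 0.38 in the methods' t-test and 0.022 with flagged spots left out. With the scanner software's processed signal the sign turned for *Chrm1* -0.14 and *Chrm2* -0.023 in MRL/lpr against Fn14ko, *Chrm2* 0.54, *Chrm4* 0.39 and *Chrna7* -0.16 in MRL/lpr against MRL/+ and *Chrm2* 0.56 and *Chrm3* 0.22 in Fn14ko against MRL/+. With quantile normalization the sign turned for *Chrm1* -0.086, *Chrm2* -0.54 and *Chrm4* -0.58 in MRL/lpr against Fn14ko, *Chrna4* 0.60 and *Chrna7* 0.17 in Fn14ko against MRL/+ and *Ache* 0.029 in MRL/lpr against MRL/+. With no spot filter, and in the same way with spots well above background in all samples the sign turned for *Chrm1* -1.31, *Chrm3* -0.014 and *Chrna4* -0.97 in MRL/lpr against Fn14ko, *Chrm1* 0.53 and *Chrna4* 0.39 in Fn14ko against MRL/+ and *Chrm3* -0.23 and *Chrna4* -0.58 in MRL/lpr against MRL/+. With spots valid in every sample of 1 group the sign turned for *Chrm1* -0.29 in MRL/lpr against Fn14ko and *Chrm2* 0.46, *Chrna4* -0.12 and *Ache* 0.17 in MRL/lpr against MRL/+. With array weights, whose estimation did not reach its convergence tolerance the sign turned for *Chrm2* 0.50, *Chrm3* -1.0 and *Chrna4* -0.10 in MRL/lpr against MRL/+. Without the weak array, with spots valid in the other 10 samples the sign turned for *Chrm2* 0.96, *Chrm3* -1.02, *Chrna4* -0.63, *Chrna7* -0.13 and *Ache* 0.63 in MRL/lpr against MRL/+ and *Chrm3* -0.14, *Chrna4* -0.36 and *Ache* 0.57 in MRL/lpr against Fn14ko. Without the weak array, with the scale of each gene kept, the sign turned for *Chrm2* 1.11, *Chrm3* -1.02, *Chrna4* -0.63, *Chrnb2* 0.11 and *Ache* 0.78 in MRL/lpr against MRL/+ and *Chrm3* -0.14, *Chrna4* -0.36 and *Ache* 0.058 in MRL/lpr against Fn14ko. With a background from the negative controls the sign turned for *Chrm1* -0.061 in MRL/lpr against Fn14ko, *Chrm2* 0.58, *Chrna7* -0.19, *Chrnb2* 1.61 and *Ache* 1.88 in MRL/lpr against MRL/+ and *Chrna4* 1.62 in Fn14ko against MRL/+. Within Cy3 the sign turned for *Chrm1* 0.40 and *Ache* 0.28 in MRL/lpr against MRL/+, *Chrm1* 0.010 and *Chrnb2* -0.00071 in Fn14ko against MRL/+ and *Chrm2* -0.015 and *Ache* 0.12 in MRL/lpr against Fn14ko. Within Cy5 the sign turned for *Chrm1* -0.39 and *Chrnb2* 0.40 in MRL/lpr against Fn14ko, *Chrnb2* 0.33 and *Ache* 0.68 in MRL/lpr against MRL/+ and *Chrnb2* -0.070 in Fn14ko against MRL/+. Leaving out each sample in turn, the ranges that crossed 0 were *Chrm1* -0.47 to 0.019, *Chrm2* -0.55 to 0.52, *Chrm3* -0.28 to 0.88 and *Ache* -0.96 to 0.23 in MRL/lpr against MRL/+, *Chrm1* -0.12 to 0.28 and *Chrm2* -0.32 to 0.76 in MRL/lpr against Fn14ko and *Chrm2* -0.47 to 0.025 in Fn14ko against MRL/+. The cause of these changes was not tested. The backgrounds from negative controls, the removal of flagged spots, the scales kept without the weak array and the fits within a dye were chosen after seeing the data. Signal over background limits *Chrm5*, *Chrna3* and the weak array most.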
